A study of Mus musculus with 24 samples.

Results

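The 8 genes described here encode the cap'n'collar activators (Nfe2l1, Nfe2l2 and Nfe2l3, whose proteins are NRF1, NRF2 and NRF3), the BACH repressors (Bach1 and Bach2) and the small MAF proteins (Maff, Mafg and Mafk). They were taken by name, with earlier results of these data known, and are 8 of the 35968 genes to which the deposited transcripts could be assigned. Their messenger RNA was measured in C2C12 cells, a mouse myoblast line, grown below confluence in DMEM with 10% serum, left undifferentiated, and collected 48 h after siRNA transfection. The 4 groups received a non-targeting siRNA (siCont), 1 siRNA against Keap1 (siKeap1), 1 siRNA against Fem1b (siFem1b), or both targeting siRNAs (siFem1b/Keap1). Each group held 3 libraries of poly(A)-selected RNA. Each gene was thus depleted with a single siRNA sequence and no second siRNA or rescue was analysed here.

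Small MAF proteins carry a basic leucine zipper but no activation domain, and they bind DNA as partners of the cap'n'collar and BACH proteins. A pair of a small MAF and an activator turns on genes with antioxidant response elements, whereas a pair with BACH1 or BACH2 keeps many of the same genes off until heme displaces the repressor. KEAP1 is the substrate adaptor of a CUL3 ubiquitin ligase that sends NRF2 to the proteasome, and FEM1B is the substrate adaptor of a CUL2 ligase that acts in the reductive stress response of myoblasts. All these controls act on protein, which was not measured: the values below are messenger RNA.

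The depletions were present in each library. Keap1 lay between 8.59 and 11.1 CPM (counts scaled by effective library size) in the 6 libraries given its siRNA and between 56.7 and 63.3 CPM in the 6 others. Fem1b lay between 11.6 and 14.2 CPM with its siRNA and between 94.1 and 106 CPM without. The siRNAs matched these coding sequences on the minus strand of chromosome 9 (GRCm38), shown to define what was depleted, with all 19 matched bases in capitals.
Keap1, chr9:21231850-21231868, exon 4 of 6: GCGCCAATGTTGACACGGA
Fem1b, chr9:62796575-62796593, exon 2 of 2: GAAGATCAGTGCAGAATTA
Libraries held 32.1 to 43.3 M estimated counts. The 8 myoblast markers were all detected, with a summed level of 7488 to 9834 CPM over all libraries, most of it Vim (7735 CPM in siCont), which is not specific to myoblasts. The more specific markers moved with the groups: Myf5 was 2.23-fold and Pax7 1.76-fold higher in siFem1b, and Myod1 was 1.41-fold and Cdh15 1.49-fold lower in siKeap1, each against siCont. Markers of other lineages also moved with the groups. The summed erythroid and megakaryocyte markers lay between 23.4 and 29.0 CPM without siFem1b and between 142 and 184 CPM with it, almost all of it the alpha-globin gene Hba-a1 (24.7 CPM in siCont and 157 CPM in siFem1b), which has a near-identical copy. Of the 6 erythroid and megakaryocyte markers, 4 were at 0 in siCont and 1 in siFem1b, with Pf4 at 0 in both groups. Itga2b was 1.74-fold higher in siFem1b than in siCont. The summed B cell markers reached at most 6.83 CPM in any library. Epithelial markers summed to 42.5 to 47.6 CPM in siCont, to 102 to 108 CPM in siKeap1, to 82.1 to 90.4 CPM with siFem1b and to 146 to 164 CPM with both siRNAs, mostly from Krt19 and Krt14. The part of these signals in the members' values was not tested. The labels do not say that the 3 libraries of a group were separate cultures, so the p-values rest on the spread among the libraries at hand, which may be technical, and in bulk RNA fewer cells with a transcript cannot be told apart from less of it per cell.

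All 8 members passed the filter on low counts, although Nfe2l3 and Bach2 did so with few reads. Per unit of transcript length (TPM, the length-scaled abundance the authors deposited), the order in siCont ran from Nfe2l1 at 125 ± 10.5 TPM (mean ± SD, n = 3) through Nfe2l2 at 85.8 ± 2.2, Mafg at 66.3 ± 7.55, Maff at 43.7 ± 0.50, Mafk at 19.3 ± 1.1 and Bach1 at 17.0 ± 1.8 to Bach2 at 0.296 ± 0.071 and Nfe2l3 at 0.143 ± 0.115. The libraries of Mafk and Bach1 overlapped, as did those of Bach2 and Nfe2l3, while all other neighbours in this order were apart. The order changed with the siRNAs: Nfe2l2 was the second highest member in siCont, the third after Nfe2l1 and Mafg in siKeap1 (62.3 ± 2.8 TPM) and siFem1b (46.2 ± 1.5), and the fourth, behind Maff as well, in siFem1b/Keap1 (35.01 ± 0.31). Nfe2l1 remained the most abundant member in all 4 groups.

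Against siCont, 5 of 8 members changed in siKeap1 (3 higher, 2 lower; adjusted p under 0.05 in edgeR's quasi-likelihood test, adjusted over all 14577 genes tested), where 42.2% of all genes tested passed (18.4% higher and 23.8% lower). In siFem1b 5 of 8 changed (3 higher, 2 lower) against 62.1% of all genes (30% higher and 32.1% lower). In siFem1b/Keap1 6 of 8 changed (4 higher, 2 lower) against 67.5% (33.8% higher and 33.7% lower). Nothing is read from these counts of 8 genes against such backgrounds. The median log2 fold changes of the 8 members were 0.03, -0.08 and 0.21 beside -0.02, -0.01 and 0.01 over all genes. The members did not move together, and the text below takes them by role. The split of all called genes depended on scaling: with library totals in place of TMM factors, 60.6% of the genes called in siFem1b and 62.1% in siFem1b/Keap1 were higher, where the TMM fit gave 48.3% and 50.1%, and the median of all genes in siFem1b/Keap1 moved from 0.01 to 0.13. Changes are given on the TMM scale, and library totals changed the call or sign of Maff, Mafg and Mafk only, as given below.

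**Figure D1:**
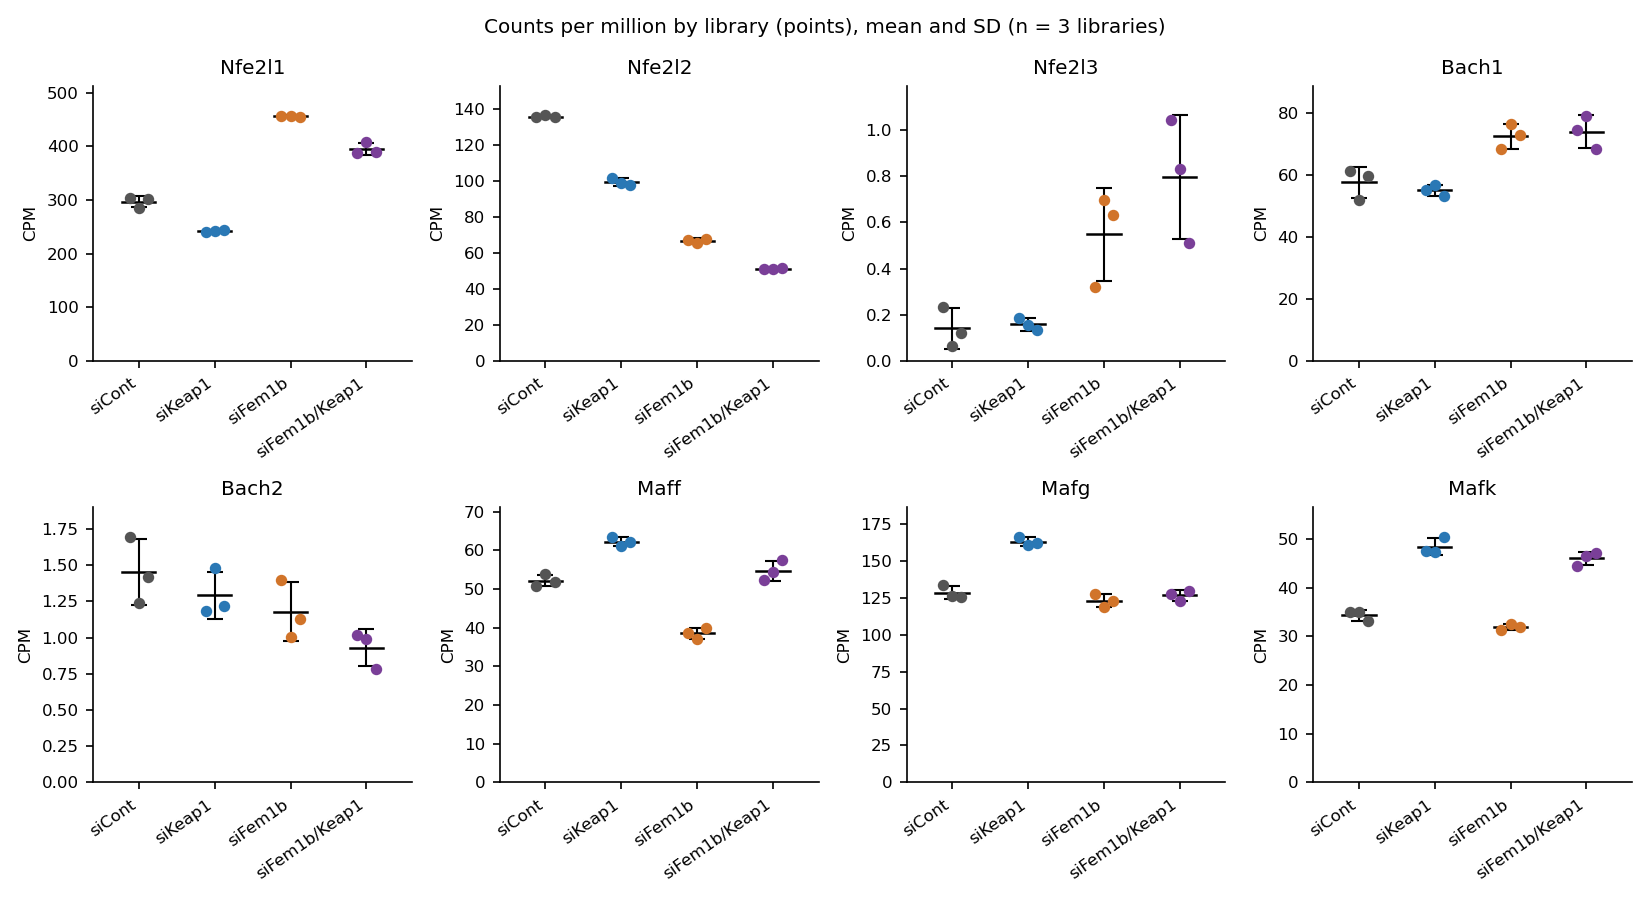
Level of each member in CPM (y axis, from 0) in the 4 siRNA groups (x axis), with a point per library and the mean and SD of 3 libraries in black. Nfe2l2 steps down from siCont to siFem1b/Keap1, Nfe2l1 is highest in siFem1b, and Mafk is high in both groups given siKeap1.

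Nfe2l1 (chr11:96817414-96829968, minus strand, GRCm38) encodes NRF1, an endoplasmic reticulum factor known for driving proteasome genes. It stood at 303, 286 and 302 CPM in the siCont libraries, at 241, 242 and 243 in siKeap1, at 456, 458 and 454 with siFem1b and at 387, 408 and 390 with both siRNAs. No pair of groups overlapped: every siKeap1 library was below every siCont library, and every library given siFem1b was above all others. Nfe2l1 rose 1.53-fold in siFem1b (log2 fold change 0.62, SE 0.036, adjusted p = 3.1e-11) and fell 1.23-fold in siKeap1 (-0.30, SE 0.036, adjusted p = 1.8e-06). In the double depletion it lay 1.33-fold above siCont (adjusted p = 5.6e-09) and 1.15-fold below siFem1b alone (adjusted p = 0.00011).

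Nfe2l2 (chr2:75675513-75704641, minus strand) encodes NRF2, the main activator of antioxidant genes and the substrate of KEAP1. Its libraries lay at 136, 137 and 135 CPM in siCont, 102, 99.0 and 97.6 in siKeap1, 67.4, 65.4 and 67.7 with siFem1b and 51.4, 51.1 and 51.6 with both siRNAs. The 4 groups were fully apart and ordered, and the double depletion held 37.8% of the siCont level. The transcript fell 1.37-fold in siKeap1 (log2 fold change -0.45, SE 0.035, adjusted p = 5.5e-09), 2.03-fold in siFem1b (-1.02, SE 0.036, adjusted p = 2.9e-14) and 2.65-fold in siFem1b/Keap1 (-1.40, SE 0.036, adjusted p = 4.5e-16). Adding siKeap1 to siFem1b lowered it 1.301-fold (adjusted p = 1.2e-07), and the response to siKeap1 with siFem1b minus that without was 0.07 on the log2 scale (95% interval -0.03 to 0.17, adjusted p = 0.42), a difference that was not detected.

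The siFem1b guide also has a partial match in Nfe2l2. In the protein-coding transcript with the highest TPM of each member, the 7 bases that pair with guide positions 2 to 8 were found for siFem1b in the 3′ UTR of Nfe2l2 only, in exon 5 of 5 (chr2:75675848-75675868, minus strand, GRCm38, GENCODE M21). It is shown because Nfe2l2 fell most with this siRNA, with the 10 bases in capitals that pair in a row with guide positions 1 to 10.
Nfe2l2, site of siFem1b: taactaTGCAGAATTAtagcc
A 7-base match of this kind lay in the 3′ UTR of 11.98% of the 13871 genes searched. The share of genes with 10 bases in a row was not counted. Nfe2l2 also holds a match of the siCont guide in its 3′ UTR (8 bases in a row), and 22.8% of genes held a 7-base match of that guide there. The siCont guide also has matches in Bach2, Mafk, Nfe2l3 and Maff. For siKeap1, 7-base matches lay in the coding sequence of Bach1 and the 3′ UTR of Bach2. Of all genes searched, 2.36% held one in the 3′ UTR and 11.2% anywhere in the transcript. No second siRNA against Fem1b was analysed here, and the part of these matches in the members' levels was not tested.

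Nfe2l3 (chr6:51432670-51458768, plus strand) encodes NRF3, the least abundant activator here. Its estimated counts were 9, 2 and 5 in siCont, 6, 6 and 5 in siKeap1, 13, 25 and 24 with siFem1b and 40, 32 and 17 with both siRNAs. Every library given siFem1b held more scaled reads than every library without it, yet the highest library stood at 1.04 CPM. From the summed counts the ratio to siCont was 3.74 in siFem1b (62 against 16 counts, 95% exact interval by Clopper-Pearson, covering counting error alone, 2.13 to 6.95) and 5.596 in siFem1b/Keap1 (89 against 16 counts, 3.26 to 10.2). Both passed the test (adjusted p = 0.0013 and 4.9e-05). In siKeap1 the ratio was 1.08 (0.515 to 2.29), and an effect of siKeap1 was not detectable at this depth (adjusted p = 0.89).

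**Figure D2:**
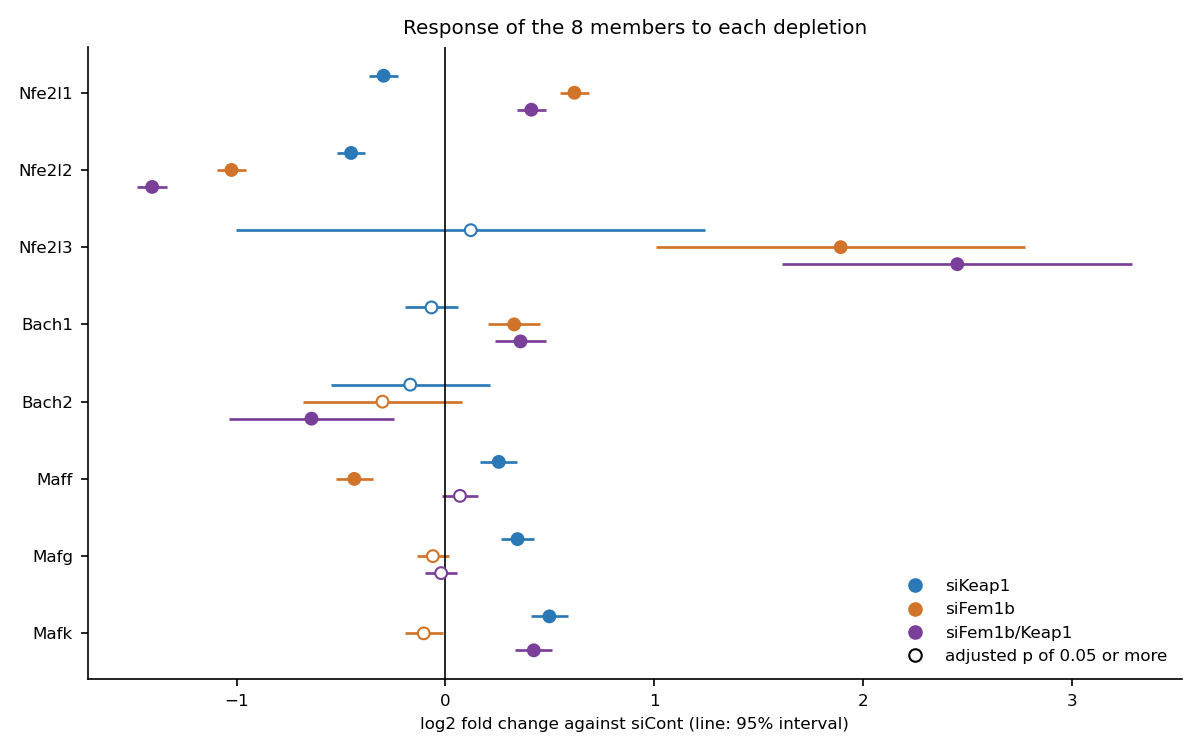
Log2 fold change of each member (y axis) against siCont (x axis) in siKeap1, siFem1b and siFem1b/Keap1, with a line for the 95% interval and an open circle where the adjusted p was 0.05 or more. Nfe2l2 lies left of 0 in all 3 comparisons, Nfe2l1 lies on opposite sides with siKeap1 and siFem1b, and the lines of Nfe2l3 and Bach2 are long.

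Bach1 (chr16:87698945-87733346, plus strand) encodes the broadly expressed repressor of heme and iron genes. It stood at 61.2, 51.8 and 59.5 CPM in siCont, 55.1, 56.7 and 53.3 in siKeap1, 68.2, 76.2 and 72.8 with siFem1b and 74.3, 78.9 and 68.4 with both siRNAs. The siKeap1 libraries lay within the siCont range, and all 6 libraries given siFem1b lay above it. Bach1 rose 1.26-fold in siFem1b (log2 fold change 0.33, SE 0.063, adjusted p = 2.0e-04) and 1.28-fold in siFem1b/Keap1 (0.36, SE 0.063, adjusted p = 6.8e-05). Its difference in siKeap1 was -0.07 (95% interval -0.19 to 0.06, adjusted p = 0.44), and adding siKeap1 to siFem1b gave 0.03 (-0.09 to 0.15, adjusted p = 0.74).

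Bach2 (chr4:32238804-32586108, plus strand), best known as a repressor in lymphocytes, held 65, 39 and 58 counts in siCont, 38, 57 and 46 in siKeap1, 57, 36 and 43 with siFem1b and 39, 38 and 26 with both siRNAs. Only the double depletion lay below all siCont libraries once scaled, at 0.930 ± 0.129 against 1.45 ± 0.23 CPM. There it fell 1.56-fold (log2 fold change -0.64, SE 0.20, adjusted p = 0.0091), a call lost in the second run alone (-0.55, adjusted p = 0.073) and turned to 0.11 with an offset for transcript length. The differences in siKeap1 (-0.17, adjusted p = 0.53) and siFem1b (-0.30, adjusted p = 0.19) did not pass. An opposite-strand gene, Bach2os, overlaps the span of Bach2. Whether their exons share sequence was not checked, and reads over shared sequence could not be told apart without strand.

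All 3 small MAF genes rose in siKeap1, and of these only Maff passed the test in siFem1b, where it fell. Mafk (chr5:139791513-139802653, plus strand) lay at 34.98, 34.9 and 33.1 CPM in siCont, 47.6, 47.3 and 50.4 in siKeap1, 31.2, 32.6 and 31.99 with siFem1b and 44.5, 46.5 and 47.0 with both siRNAs. The 6 libraries given siKeap1 were above the 6 without. Mafk rose 1.41-fold with siKeap1 alone (log2 fold change 0.50, SE 0.045, adjusted p = 4.5e-08) and 1.44-fold when siKeap1 was added to siFem1b (0.53, SE 0.045, adjusted p = 2.8e-08). The siFem1b libraries lay below all siCont libraries, and siFem1b alone gave -0.10 (SE 0.046, adjusted p = 0.061; -0.13 and 0.034 without the third siCont library). The opposite-strand gene Tmem184a overlaps Mafk.

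Mafg (chr11:120625117-120633600, minus strand), the most abundant small MAF gene in every group, lay at 133, 126 and 126 CPM in siCont, 166, 161 and 162 in siKeap1, 128, 119 and 123 with siFem1b and 128, 123 and 129.5 with both siRNAs. The siKeap1 libraries stood above all others, and the remaining 3 groups overlapped. Mafg rose 1.27-fold in siKeap1 (log2 fold change 0.35, SE 0.039, adjusted p = 8.4e-07). When siKeap1 was added to siFem1b the difference was 0.04 (95% interval -0.04 to 0.12, adjusted p = 0.46). The 2 responses differed by -0.31 (SE 0.056, adjusted p = 0.0011). Against siCont, Mafg differed by -0.06 in siFem1b and -0.02 in siFem1b/Keap1 (adjusted p = 0.20 and 0.67), signs that library totals in place of TMM turned to 0.04 and 0.10 (the latter with an adjusted p of 0.032). Mafg overlaps Sirt7 on its own strand.

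Maff (chr15:79346621-79359076, plus strand), known as an inducible small MAF gene, lay at 50.9, 53.8 and 51.8 CPM in siCont, 63.5, 61.2 and 62.2 in siKeap1, 38.6, 37.2 and 39.9 with siFem1b and 52.4, 54.5 and 57.5 with both siRNAs. It was highest in siKeap1, lowest in siFem1b, and in the double depletion it overlapped siCont. Maff rose 1.19-fold in siKeap1 (log2 fold change 0.26, SE 0.045, adjusted p = 0.00013) and fell 1.35-fold in siFem1b (-0.44, SE 0.046, adjusted p = 1.2e-07). Adding siKeap1 to siFem1b raised it 1.42-fold (0.51, SE 0.046, adjusted p = 4.9e-08). Against siCont the double depletion gave 0.07 (adjusted p = 0.18), but 0.19 with library totals (adjusted p = 0.00077) and 0.14 with genes of at least 5 CPM only, where it also passed.

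The question whether a member's response to siKeap1 depended on Fem1b was put to each gene as an interaction, in which 2 of 8 members passed, beside 11.4% of all genes tested. Of all genes that passed, the sign of the difference (response to siKeap1 with siFem1b minus that without) was positive in 53.5%, but in 32.9% in the first run alone, 36.4% in the second run alone and 42.9% with the offset for transcript length. The passing members were Mafg, above, and Maff, whose response to siKeap1 was larger with siFem1b than without by 0.25 in log2 units (SE 0.064, adjusted p = 0.015). The Maff call was lost in 5 of 33 alternative fits, among them the first run alone (adjusted p = 0.13), the second run alone (0.078), the fit without the second siFem1b library (0.065) and that without the third siFem1b/Keap1 library (0.10). The Mafg call held in all 33. For Mafk the difference was 0.03 (95% interval -0.10 to 0.15), for Nfe2l1 0.09 (-0.01 to 0.19) and for Bach1 0.10 (-0.08 to 0.27), none of which passed.

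The remaining pairwise comparisons share these libraries and are given for completeness. Between siFem1b/Keap1 and siFem1b, 4 of 8 members changed (43.1% of all genes tested), namely Nfe2l1 and Nfe2l2 lower and Maff and Mafk higher. Between siFem1b/Keap1 and siKeap1, 6 of 8 changed (63.6% of all genes), where 61.7% of all genes called were higher with library totals and 50.3% with TMM. Nfe2l1 was 1.63-fold, Nfe2l3 5.03-fold and Bach1 1.34-fold higher in the double depletion, and Nfe2l2 1.94-fold, Mafg 1.29-fold and Maff 1.14-fold lower. The Maff call there was lost with library totals (-0.09, adjusted p = 0.080) and when the first run was used by itself (-0.15, adjusted p = 0.056). Bach2 (-0.47, adjusted p = 0.053) and Mafk (-0.07, adjusted p = 0.15; 0.02 with library totals) did not pass. Between the single depletions, siFem1b against siKeap1, 7 of 8 members differed (63.9% of all genes), all but Bach2 (-0.13, adjusted p = 0.58). Nfe2l1 was 1.88-fold and Bach1 1.32-fold higher with siFem1b, and Maff (1.62-fold), Mafk (1.52-fold), Nfe2l2 (1.49-fold) and Mafg (1.32-fold) were lower.

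Because a small MAF can pair with any activator or repressor, the balance of the members was also described per length, with no test. The sum of Maff, Mafg and Mafk was 129 ± 8.4 TPM in siCont, 163 ± 5.4 in siKeap1, 121 ± 2.4 with siFem1b and 142 ± 3.9 with both siRNAs. Small MAF transcripts per Nfe2l2 transcript went from 1.51 ± 0.068 in siCont to 2.61 ± 0.050 in siKeap1 and 2.62 ± 0.040 in siFem1b, reached in the first by more small MAF and less Nfe2l2 and in the second by less Nfe2l2. In the double depletion the ratio was 4.05 ± 0.14. Bach1 per Nfe2l2 went from 0.198 ± 0.017 to 0.259 ± 0.017, 0.491 ± 0.013 and 0.629 ± 0.037 in the same order of groups, which were apart in every library. Nfe2l1 per Nfe2l2 was 1.46 ± 0.10 in siCont, 1.69 ± 0.076 in siKeap1, 5.03 ± 0.44 with siFem1b and 5.46 ± 0.36 with both siRNAs, so the groups fell into a low and a high pair. Nfe2l1 rose more in TPM than in CPM: from 125 to 232 TPM, but from 297 to 456 CPM, in siFem1b against siCont. Part of its TPM is a transcript of 582 bases, whose part in the ratio was not tested. Within the small MAF sum, Mafk took 14.9% ± 0.34 in siCont and 19.5% ± 1.1 in siFem1b/Keap1, and Mafg 51.2% ± 2.5 and 45.8% ± 0.79.

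**Figure D3:**
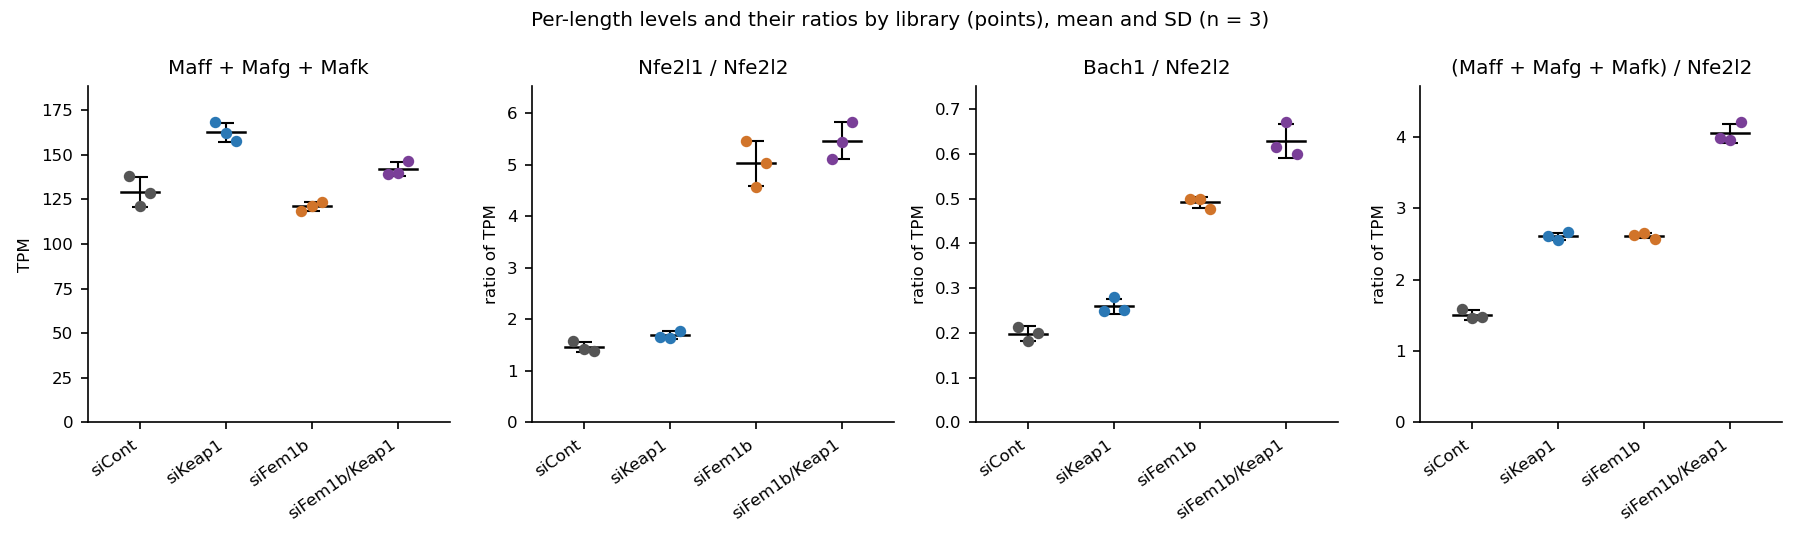
Summed TPM of the 3 small MAF genes and the ratios of Nfe2l1, Bach1 and the small MAF sum to Nfe2l2 (y axes, from 0) in the 4 groups (x axes), with a point per library and the mean and SD of 3 libraries in black. The ratio of Bach1 to Nfe2l2 rises from 0.198 in siCont to 0.629 in siFem1b/Keap1, with no overlap between groups.

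The rise of Nfe2l1 was unequal among its annotated starts, a comparison chosen after the data were seen. GENCODE M21 gives Nfe2l1 12 transcripts with 7 separate first exons, numbered here from upstream. Start 1 (led by Nfe2l1-201) has its first exon at chr11:96829819-96829968, and start 2 (Nfe2l1-207 and Nfe2l1-211) begins 466 bases downstream, at chr11:96829411-96829502. The 250 bases upstream of each start, as RefSeq gives them (GRCm38.p6, minus strand), are shown because the starts behaved differently. Neither holds a match of the motifs searched below, so no base is in capitals.
Nfe2l1 upstream of start 1, chr11:96829969-96830218: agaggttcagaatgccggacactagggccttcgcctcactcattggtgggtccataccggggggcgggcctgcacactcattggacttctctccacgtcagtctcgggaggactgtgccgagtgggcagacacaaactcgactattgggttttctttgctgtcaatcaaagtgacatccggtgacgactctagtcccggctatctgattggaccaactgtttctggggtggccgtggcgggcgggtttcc
Nfe2l1 upstream of start 2, chr11:96829503-96829752: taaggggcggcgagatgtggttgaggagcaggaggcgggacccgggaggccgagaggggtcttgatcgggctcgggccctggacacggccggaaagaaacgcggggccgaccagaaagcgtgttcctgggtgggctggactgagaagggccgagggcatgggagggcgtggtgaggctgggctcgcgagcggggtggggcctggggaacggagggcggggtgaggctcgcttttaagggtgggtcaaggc
The G and C content was 57.6% upstream of start 1 and 69.6% upstream of start 2.

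Transcripts from start 1 summed to 72.3, 59.7 and 69.1 TPM in siCont and 76.3, 55.2 and 62.5 in siFem1b, which overlapped. Those from start 2 summed to 38.9, 36.2 and 34.6 TPM in siCont, 32.5, 26.2 and 31.6 in siKeap1, 134, 116 and 137 with siFem1b and 103, 119 and 103 with both siRNAs. The 6 libraries given siFem1b were far above the 6 others, with a mean 3.53-fold that of siCont in siFem1b and 3.5996-fold that of siKeap1 in the double depletion. Start 6, inside the gene at chr11:96823945-96824013, was lower but moved likewise, from 8.06 ± 0.84 TPM in siCont to 21.2 ± 3.2 in siFem1b. Start 1 thus fell from 53.5% ± 3.4 of all Nfe2l1 TPM in siCont to 27.8% ± 2.8 in siFem1b, and start 2 rose from 29.2% ± 1.3 to 55.6% ± 1.3. Within start 2, Nfe2l1-207, of 582 bases, gave 21.965 ± 5.21 TPM in siCont and 61.55 ± 22.4 in siFem1b (37.2 to 81.3 by library). Nfe2l1-211, of 4596 bases, went from 14.6 ± 3.41 to 67.4 ± 13.4 TPM. The part of the short transcript in the start 2 sums and shares was not tested.

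In a limma fit of the log2 odds of a start within its gene, over 16857 starts, 48 starts (0.285%) passed in siFem1b against siCont and 119 (0.706%) in siFem1b/Keap1 against siKeap1, beside 0.166% in siKeap1 against siCont, where no Nfe2l1 start passed. Start 2 of Nfe2l1 gained 1.59 (SE 0.20, adjusted p = 0.026) and start 1 fell by 1.58 on that scale in siFem1b (adjusted p = 0.026), and start 2 gained 1.70 (adjusted p = 0.0065) in siFem1b/Keap1 against siKeap1. The value for start 2 in siFem1b stayed between 1.54 and 1.64 when single siCont or siFem1b libraries were left out, but its adjusted p rose to 0.057 to 0.11 without any one of the siFem1b libraries and without the first or the third siCont library. It was 0.12 in the first run alone and 0.070 with the replicate block. The split is an estimate that rests on reads over the first exons, and Nfe2l1-211 alone ranged from 35.5 to 75.01 TPM over the siFem1b/Keap1 libraries. Start 6 did not pass in siFem1b (0.49, adjusted p = 0.42).

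**Figure D4:**
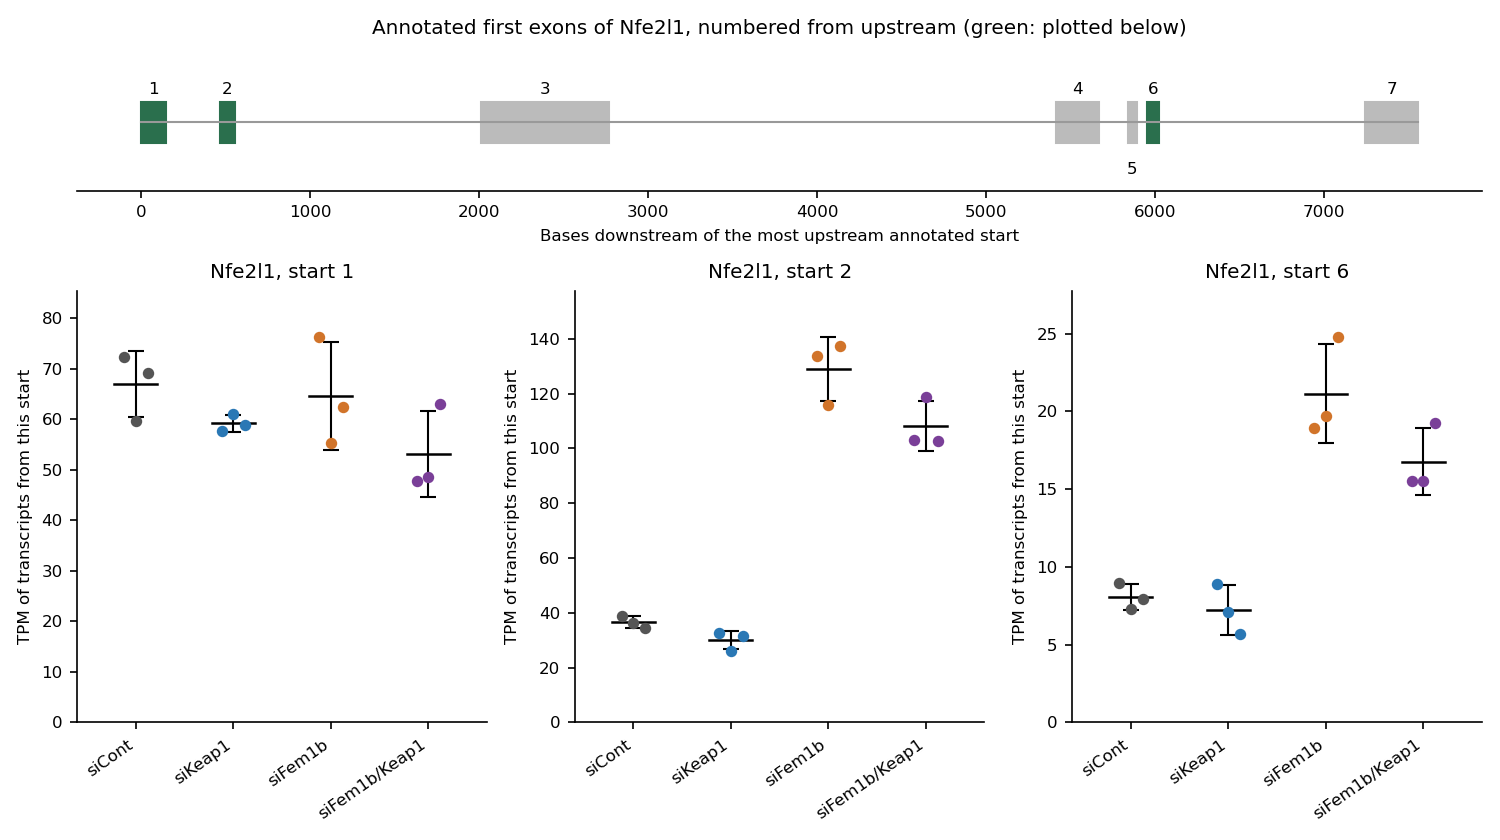
Top, the 7 annotated first exons of Nfe2l1 by their distance in bases from the most upstream start (x axis). Bottom, summed TPM (y axes, from 0) of transcripts from starts 1, 2 and 6 in the 4 groups, with a point per library and the mean and SD of 3 libraries. Start 2 rises from 36.5 TPM in siCont to 129 in siFem1b, and start 1 stays between 47.8 and 76.3 TPM in all libraries.

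Maff-203, from the most upstream Maff start, lay between 0.365 and 0.668 TPM in siCont and between 2.62 and 3.31 TPM in siFem1b/Keap1, beside 43.3 ± 2.3 TPM for the leading Maff-201 in the latter. Mafk came almost entirely from start 1 (98.2% ± 0.60 in siCont), and Nfe2l2, Nfe2l3 and Bach1 each have a single annotated start.

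The RefSeq promoters of all 8 members, 14 in number, were searched over 250 bases upstream of the start on both strands for the antioxidant response element core TGACNNNGC, at which small MAF pairs are known to act. A match was present for Nfe2l2 and for each small MAF gene. Over all genes, 10.2% of 32851 promoters and 11.5% of 27025 genes held one. Windows of 30 bases around these matches, in the direction of the gene (GRCm38.p6), are shown with the match in capitals. All 3 small MAF genes rose in siKeap1, but Nfe2l2 fell there.
Nfe2l2, chr2:75704884-75704913, minus strand: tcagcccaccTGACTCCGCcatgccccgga
Mafg, chr11:120633750-120633779, minus strand: ctctgcaggaGCACGGTCAacccggcgagc
Mafk, chr5:139791506-139791535, plus strand: gacgcgcgatcccggaaGCGGTGTCAgtac
Maff, chr15:79346499-79346528, plus strand: gggcgtctcaTGACTCTGCcactggaaaga
In Mafg and Mafk the match is on the strand opposite to the gene, so the capitals read as its reverse complement. The Maff match belongs to the start of Maff-203, and no match lay upstream of the start of Maff-201. Mafk's match lies 13 to 5 bases before the RefSeq start, inside the first exon as GENCODE gives it. The NF-E2 and MAF element core TGANTCAGC, present in 1.02% of promoters and 1.17% of genes, was found for no member. CACGTG was found for Mafk, Mafg and Maff (6.02% of promoters, 6.86% of genes) and CAGCTG for internal starts of Nfe2l1 (13.0% of promoters, 14.7% of genes). These are matches of letters and not measured binding.

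Genes that act on the members were taken from lists, and each count stands against 42.2% of all genes called in siKeap1, 62.1% with siFem1b and 67.5% with both siRNAs, so nothing is read from the shorter lists. Of 13 measured genes of NRF2 control, 1 rose and 3 fell in siKeap1, 3 rose and 4 fell with siFem1b and 4 rose and 6 fell with both siRNAs. Keap1 itself, the target of the siRNA, is among those that fell in siKeap1 and in siFem1b/Keap1. Sqstm1, the autophagy receptor that binds KEAP1, rose 1.67-fold in siKeap1 and fell 1.22-fold in siFem1b, and Gsk3b, a kinase that marks NRF2 for beta-TrCP, rose 1.34-fold in siFem1b (adjusted p = 1.9e-07). Of 8 genes of NRF1 processing, 1 rose and 2 fell in siKeap1, 1 rose and 5 fell with siFem1b and 1 rose and 3 fell with both siRNAs. In siFem1b Ddi2, the protease that cleaves NRF1, fell 1.27-fold (adjusted p = 3.8e-07). Hcfc1, a cofactor known to stabilise NRF1 with OGT, fell 1.31-fold in siFem1b and 1.71-fold in siFem1b/Keap1. Ngly1 of the same list rose 1.36-fold in siFem1b and 1.27-fold in siFem1b/Keap1.

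Of 6 genes that set BACH1 or its ligand heme, 2 rose in siKeap1, 2 fell with siFem1b and 3 rose and 3 fell with both siRNAs. The shares of all genes called were 42.2%, 62.1% and 67.5% in the same order, and nothing is read from these counts. Alas1, the first enzyme of heme synthesis, rose 1.46-fold in siKeap1, and Fbxo22, a ubiquitin ligase adaptor of BACH1, fell 1.23-fold in siFem1b. Other cap'n'collar and MAF genes were scarce but responded to siFem1b. The large MAF gene Maf rose 3.72-fold from 2.98 to 11.1 CPM, Mafa rose 3.12-fold from 1.86 to 5.84 CPM, and Nfe2, the hematopoietic relative of Nfe2l2, went from 0.238 to 0.722 CPM (adjusted p = 0.0014). Of these 5 genes, 3 rose in siFem1b, 2 fell in siKeap1 (Maf and Mafa), and 4 rose in siFem1b/Keap1, beside the same shares of all genes.

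Target genes are set beside the members' levels without a test of the list. Of all genes tested, 18.4% were called higher and 23.8% lower in siKeap1, 30% and 32.1% in siFem1b, and 33.8% and 33.7% in siFem1b/Keap1. The lists, like the members, were chosen with earlier results of these data known. Of 30 genes known as NRF2 targets, 28 rose and 0 fell in siKeap1 (median log2 fold change 1.21), 2 rose and 21 fell in siFem1b (-0.40), and 20 rose and 6 fell in siFem1b/Keap1 (0.36), beside the medians over all genes given above. The quinone reductase gene Nqo1 rose 5.41-fold in siKeap1, where Nfe2l2 itself fell, and fell 2.61-fold in siFem1b. Of 10 heme and iron genes known to be repressed by BACH1, 10 rose in siKeap1 (median 1.24), 9 fell and 0 rose in siFem1b (-0.73), and 4 rose and 5 fell in siFem1b/Keap1 (-0.07). Ftl1, the ferritin light chain, went from 3768 CPM in siCont to 442 CPM in siFem1b, 8.52-fold lower, although it has near-identical copies between which reads may be split. Blvrb, a biliverdin reductase gene, rose 5.64-fold in siKeap1. These lists share 4 genes, 13.3% of the first and 40% of the second.

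Of 32 proteasome genes, the known targets of NRF1, 27 fell and 0 rose in siFem1b (median -0.23), the group where Nfe2l1 was highest. Of all genes tested, 62.1% were called there, 30% higher and 32.1% lower. In siKeap1 11 rose and 5 fell (0.04), and in siFem1b/Keap1 3 rose and 15 fell (-0.07). These 16 and 18 called genes of 32 stand beside 42.2% and 67.5% of all genes, and nothing is read from them. Psma5, a 20S core subunit, rose 1.26-fold in siKeap1 and fell 1.68-fold in siFem1b, from 163 to 97.2 CPM. Psmd12, a subunit of the 19S lid, fell 1.42-fold in siFem1b and 1.63-fold in siFem1b/Keap1.

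The genes whose log2 CPM ran most like each member's over the 12 libraries are given as a description, since the libraries share 4 group levels. They were taken from 9910 genes of at least 5 CPM. Among the genes most like Nfe2l1 were Bhlhe41 (Pearson r = 0.997) and Cdon, a cell surface protein known from myogenesis, and Nfe2l2 ran most like Smg5 (0.998) and the replication genes Cdc6 and Mcm3. Maff ran most like Col4a1 (0.988), Mafk like Tuba4a (0.992), Mafg like Prrc2c (0.983) and Bach1 like Kif1b (0.970). Among the members, the highest r was that of Nfe2l3 and Bach1 (0.936) and the lowest that of Nfe2l2 and Nfe2l3 (-0.883), although Nfe2l3 rests on few reads. Other pairs were Nfe2l1 and Bach1 (0.898), Maff and Mafk (0.838), Nfe2l2 and Bach1 (-0.832), Nfe2l1 and Mafg (-0.830), Nfe2l1 and Maff (-0.814) and Nfe2l1 and Nfe2l2 (-0.72).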

How the data were processed

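The authors quantified transcripts with kallisto 0.44.0 on the mouse build mm10, per the submitters' processing notes, and deposited 1 table per sequencing run with estimated counts, TPM values and effective lengths per transcript, per the file headers. Trimming, filters and strand setting are not given in the sources used here.

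The 24 tables were grouped into 12 libraries by their labels, and the 2 runs of a library were summed (TPM values were averaged). All 12 second runs matched their own library best. Of 118489 transcripts, 116728 (98.5%) matched GENCODE M21 and were summed to 35968 genes. The others held 0.608% to 0.637% of the counts and were left out. Estimated counts were rounded, genes were filtered by edgeR's filterByExpr (14577 kept), scaled by TMM (factors 0.952 to 1.04) and tested in 1 model over all 4 groups with edgeR 4.0.16 (R 4.3.3) and Benjamini-Hochberg adjustment at 0.05. The common biological coefficient of variation was 0.0503. Start shares were fitted with limma 3.58.1 (pseudocount 0.5 TPM, starts of at least 1 TPM in 3 libraries). DESeq2 1.42.0 was an alternative. On simulated data for siKeap1 against siCont (14310 genes), the test recovered 71 of 100 genes changed 1.5-fold and 82 of 100 changed 2-fold, with 8 false calls among 161. Only these genes were changed, in random directions and in siKeap1 alone, with the spread taken from the fit. In the data 42.2% of genes were called in that comparison, so the simulation does not show the rate of false calls or the scaling there. Scripts ran in Python 3.11.15 with pandas 2.3.3. Counting intervals are at 95% and cover counting error only, since reads need not be independent molecules.

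Members and lists were chosen with earlier results of these data known. Named beside the members were up to 3 genes of each list with the smallest p-value past the threshold in a comparison described, and genes from the 3 most similar to each member of at least 1 CPM. Not every gene so chosen is reported here. Alternatives were other scalings, filters, a length offset, single runs, a replicate block, DESeq2 and each library left out. Replicate numbers did not pair the samples: deviations of same-numbered libraries correlated between -0.17 and 0.203.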

Additional observations from a re-analysis of the deposited data

Results flagged for a closer look

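Maff and Mafg were singled out because the response to siKeap1 differed between cells with and without siFem1b in the test of that difference. For Maff the response was larger with siFem1b by 0.25 on the log2 scale (adjusted p = 0.015, edgeR's quasi-likelihood test). For Mafg it was smaller with siFem1b, a difference of -0.31 (adjusted p = 0.0011).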

How the results depend on the processing

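The signs of values near 0 turned with the processing, as follows (log2). With library totals in place of TMM, Mafg gave 0.038 in siFem1b and 0.10 in siFem1b/Keap1 against siCont, and Mafk 0.020 in siFem1b/Keap1 against siKeap1. With genes of at least 5 CPM only, Mafg gave 0.045 in siFem1b/Keap1 against siCont. With the offset for transcript length, Bach2 gave 1.34 in siKeap1 and 0.11 in siFem1b/Keap1 against siCont and 0.13 in siFem1b/Keap1 against siFem1b, where Bach1 gave -0.015, and the interaction of Nfe2l1 gave -0.017. In the first run alone, Mafg gave 0.029 in siFem1b and 0.0021 in siFem1b/Keap1 against siCont and -0.027 in siFem1b/Keap1 against siFem1b, Bach2 0.056 in siFem1b against siKeap1, and the interaction of Mafk -0.088. With a siKeap1 library as the TMM reference, Mafg gave 0.0080, 0.0052 and 0.0031 in siFem1b/Keap1 against siCont, and with a siCont library the interaction of Mafk gave -0.0091, -0.0050 and -0.0091.

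When single libraries were left out, Nfe2l3 in siKeap1 ranged from -0.17 to 0.68, Mafg in siFem1b/Keap1 against siCont from -0.040 to 0.0047, Bach1 in siFem1b/Keap1 against siFem1b from -0.020 to 0.070, the interaction of Nfe2l3 from -0.13 to 0.73 and that of Mafk from -0.024 to 0.060. The Nfe2l1 start 2 share in siKeap1 turned to 0.029 in the second run alone and ranged from -0.11 to 0.070 without single libraries, and the Nfe2l1 start 6 share, siKeap1 against siCont, from -0.054 to 0.26. The cause of these turns was not tested.

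The interaction passed in 799 genes with the length offset and 929 in the first run alone, against 1667 with the settings used, and in 1 member with the length offset, the first run or the second run alone (1 to 2 members when single libraries were left out). Among its genes called, the share with a positive sign was 37.9% to 38.8% without siFem1b replicate 2 or 3 or siFem1b/Keap1 replicate 1 or 3, and 38.1% to 42.6% with a siCont library or siKeap1 replicate 1 or 2 as TMM reference. With the replicate block, 5, 5 and 6 members passed against siCont in siKeap1, siFem1b and siFem1b/Keap1, as without it, and 1482 genes passed the interaction. Of 12 libraries, 3 correlated best with their own number, so the pairing was not taken up. The block ended the calls of Nfe2l1 starts 1 and 2 in siFem1b (adjusted p = 0.070). The TMM references and the alternatives for start shares were chosen after seeing the data. Nfe2l3 and Bach2 rest on few counts, 2 to 40 and 26 to 65 a library.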
